A study of Mus musculus with 6 samples.

Results

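Antiviral interferon-stimulated genes were examined in lungs of mice exposed to cigarette smoke, as 10 genes named by symbol: Ifit1, Ifit2, Ifit3, Isg15, Mx1, Oas2, Oasl2, Rsad2, Irf7 and Usp18. They were chosen for their role in the type I interferon response and are 10 of 57180 rows of the table. All 10 had enough counts to be tested among 16913 genes. Poly(A)-selected RNA was sequenced from 3 lung libraries of genotype WT and 3 of genotype FTO_OE, which overexpressed FTO, the demethylase that removes the N6-methyladenosine mark from RNA. All 6 libraries came from the smoke-exposed arm of a model of chronic obstructive pulmonary disease, so no value here measures an effect of smoke. Strain, age, sex, length of exposure and the way FTO was overexpressed are not given in the labels, and neither is whether each library came from a separate animal. The p-values therefore measure the spread between these libraries.

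Type I interferons are secreted when cells sense foreign or misplaced nucleic acid. They bind the receptor IFNAR, whose kinases JAK1 and TYK2 activate transcription factors that enter the nucleus together with IRF9. These bind a promoter element, the interferon-stimulated response element, and switch on genes whose products block viral RNA, protein synthesis or budding. In the lung, epithelium, endothelium and leukocytes can all make this response, and interferon-gamma from lymphocytes raises part of the same genes.

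The response element is shown because the 10 genes share it as a textbook feature and were read here as a set. Its core, GAAA followed after any 2 bases by another GAAA, was searched on both strands, overlapping matches included, in the 200 bases before the annotated start site (RefSeq promoters, build GRCm38.p6, matched by symbol). A promoter was found for 7 of the 10 genes, and 4 of these held the core. Over all promoters listed there, 716 of 27025 symbols held it, or 2.65%. The windows are chr19:34640689-34640888 (plus strand) for Ifit1, chr19:34583329-34583528 (plus strand) for Ifit3, chr4:156200819-156201018 (minus strand) for Isg15 and chr12:26456453-26456652 (minus strand) for Rsad2. Each is written 5′ to 3′ along the gene's own strand, and capitals mark the matched core, which reads as its reverse complement in Ifit1, Ifit3 and Rsad2.
Ifit1: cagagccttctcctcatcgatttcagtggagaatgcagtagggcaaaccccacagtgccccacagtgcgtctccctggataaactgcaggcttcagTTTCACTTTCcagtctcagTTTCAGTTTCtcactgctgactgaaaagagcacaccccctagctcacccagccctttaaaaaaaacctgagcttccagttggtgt
Ifit3: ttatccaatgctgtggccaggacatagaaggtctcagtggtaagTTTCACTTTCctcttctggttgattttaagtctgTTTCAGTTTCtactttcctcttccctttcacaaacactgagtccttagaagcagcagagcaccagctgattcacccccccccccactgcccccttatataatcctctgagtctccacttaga
Isg15: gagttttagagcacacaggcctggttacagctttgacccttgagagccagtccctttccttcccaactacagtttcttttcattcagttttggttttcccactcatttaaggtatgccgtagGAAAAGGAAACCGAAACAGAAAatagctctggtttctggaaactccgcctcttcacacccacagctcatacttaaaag
Rsad2: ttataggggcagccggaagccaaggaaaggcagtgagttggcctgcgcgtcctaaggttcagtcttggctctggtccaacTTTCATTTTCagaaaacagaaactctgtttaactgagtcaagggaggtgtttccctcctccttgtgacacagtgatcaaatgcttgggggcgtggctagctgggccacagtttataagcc
Ifit1 and Ifit3 each held 2 separate cores, Isg15 held 3 that overlap in a single run starting 78 bases before the start site, and Rsad2 held 1. The promoters of Ifit2, Oasl2 and Irf7 had no match to these letters in this window. A match describes letters in a promoter and was not a measurement of binding. The core was held by 7 of 8 paralogues of these genes with a listed promoter and by 9 of 13 interferon-gamma-inducible genes. It was held by 6 of 25 other antiviral genes, 1 of 11 sensors and adaptors, 1 of 6 negative regulators, 0 of 3 ISG15 conjugation genes and 0 of 7 receptor and signalling genes.

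Column totals ran from 16731850 to 21444907 counts. Fto itself was at 66.3 to 69.9 CPM in the WT libraries and 651.1 to 741.6 CPM in the FTO_OE libraries, so each library carried the Fto level its label called for. CPM here are read counts scaled to library size with TMM factors. All 9 lung markers checked were expressed in every library, with a summed level of 36181 to 51054 CPM. Most of this sum came from the surfactant gene Sftpc and the club cell gene Scgb1a1, and Foxj1 was lowest, at 53.3 to 79.8 CPM. The log2 fold changes of the 9 were all below 0, with a median of -0.26. At an adjusted p of 0.05 by edgeR, 16 genes of all those tested were called, which is 0.0946%, and 13 of them (0.0769%) were higher in FTO_OE lungs. In whole tissue, a change in the number of cells that express a gene cannot be told apart from a change in RNA per cell.

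All 10 antiviral genes had mean levels that were higher in FTO_OE lungs, by 1.08-fold (Usp18) to 1.74-fold (Mx1), but none passed the test over all genes. The lowest edgeR adjusted p was 0.337, for Oas2, and the highest 0.965, for Rsad2. With 0 of 10 called by edgeR, limma-voom and DESeq2 alike, 4 had an unadjusted p under 0.05 (Ifit1, Mx1, Oas2 and Irf7), against 5.78% of all genes tested that were higher at that level. The median log2 fold change of the 10 was 0.34, beside 0.0066 over all genes tested, of which 51.4% were above 0. In 3 of the 10, every FTO_OE library lay above every WT library, a pattern shown by 7.93% of all genes tested. With CPM of library totals alone, without TMM factors, 5 of the 10 did so, against 10.3% of all genes. The genes were chosen with earlier results of these libraries known, and they vary together, so these counts describe the set and are not 10 independent observations.

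**Figure D1:**
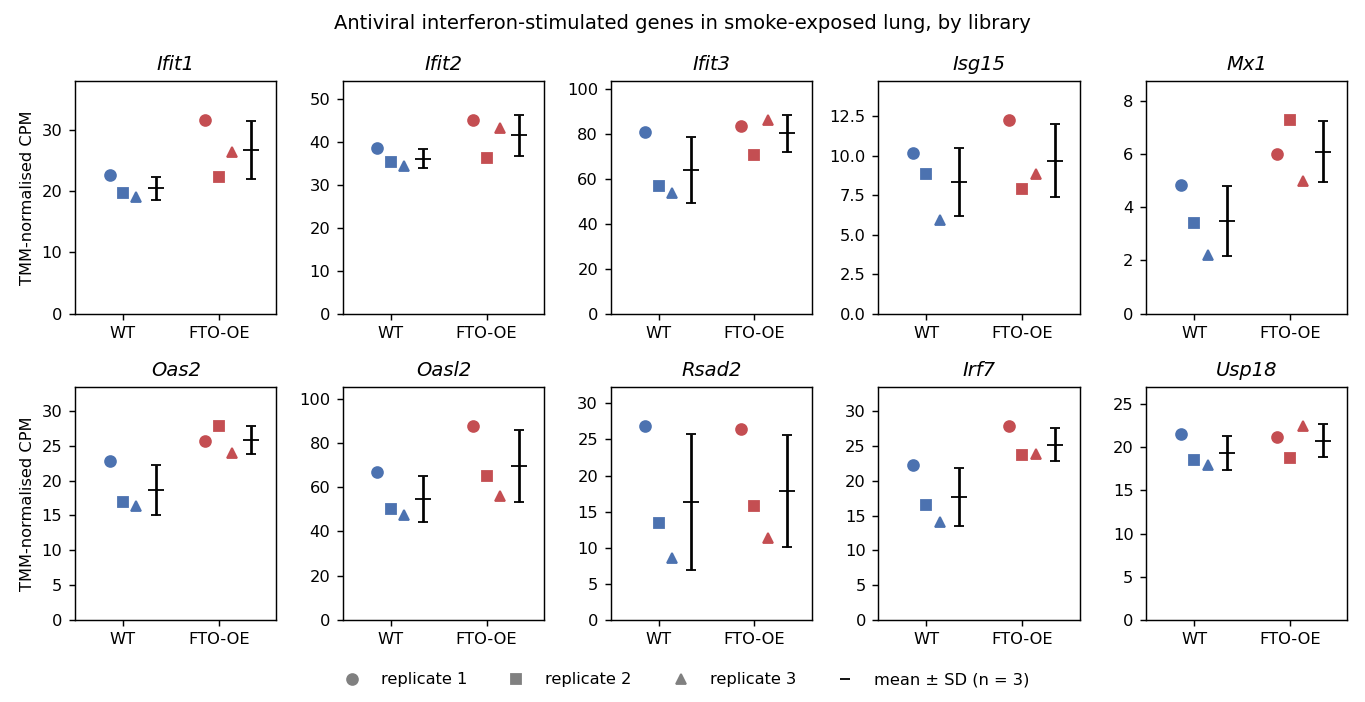
Level of each gene in each library, in TMM-normalised CPM on axes starting at 0, for 3 wild-type (WT, blue) and 3 FTO-overexpressing (FTO-OE, red) lungs; symbols mark the replicate number and black bars the mean ± SD (n = 3). The groups separate in Mx1, Oas2 and Irf7, and wild-type replicate 1 is the highest wild-type point in all 10 panels.

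Irf7 encodes the transcription factor that amplifies interferon-alpha production once interferon signalling has begun. Its level was 22.3, 16.5 and 14.1 CPM in WT replicates 1, 2 and 3 and 27.9, 23.7 and 23.9 CPM in FTO_OE replicates 1, 2 and 3. The groups did not overlap, and the lowest FTO_OE library lay 1.07-fold above the highest WT library. The fitted ratio of the groups was 1.43 (95% interval 1.08 to 1.88; edgeR adjusted p = 0.382). Usp18 encodes the protease that removes ISG15 from proteins and also damps the receptor IFNAR. It stood at 21.6, 18.5 and 17.9 CPM in WT and 21.2, 18.7 and 22.5 CPM in FTO_OE lungs. These ranges overlapped almost fully, and the difference of 1.08-fold had a 95% interval of 0.891 to 1.30, with the lowest upper bound of the 10.

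The oligoadenylate synthetase family senses double-stranded RNA, and OAS2 makes the second messenger that activates the nuclease RNase L. Oas2 was at 22.9, 16.9 and 16.4 CPM in WT and 25.7, 27.8 and 23.9 CPM in FTO_OE lungs. Its groups did not overlap, and the lowest FTO_OE library was 1.05-fold above WT replicate 1, the highest of its group. The fold was 1.38 (95% interval 1.09 to 1.75; edgeR adjusted p = 0.337). Oasl2, an OAS-like protein with ubiquitin-like domains, was at 66.7, 50.01 and 47.1 CPM against 87.6, 65.1 and 55.9 CPM. The groups overlapped, since WT replicate 1 exceeded FTO_OE replicates 2 and 3. Its fold was 1.27 (95% interval 0.936 to 1.73).

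Mx1 encodes a dynamin-like GTPase that restricts influenza and related viruses, and it had the largest difference and the lowest level of the 10. The strain is not given, and RNA levels do not tell whether a working MX1 protein is made. It gave 89, 65 and 40 counts in WT and 118, 128 and 108 counts in FTO_OE libraries, or 4.83, 3.42 and 2.20 CPM against 6.00, 7.29 and 4.99 CPM. The groups did not overlap, but the gap between WT replicate 1 and FTO_OE replicate 3 was small. The count of 89 in WT replicate 1 has an exact 95% Poisson interval of 71.5 to 109.5, and the count of 108 in FTO_OE replicate 3 one of 88.6 to 130.4, so these libraries could not be separated by counting error alone. The fold was 1.74 with a wide 95% interval of 1.07 to 2.84 (edgeR adjusted p = 0.452).

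The IFIT proteins bind foreign RNA 5′ ends and stall its translation. Ifit1 was at 22.6, 19.7 and 19.1 CPM in WT and 31.6, 22.3 and 26.4 CPM in FTO_OE lungs. Only FTO_OE replicate 2 lay below WT replicate 1, and the fold was 1.31 (95% interval 1.04 to 1.65; edgeR adjusted p = 0.443). Ifit2 was at 38.5, 35.4 and 34.4 CPM against 45.1, 36.2 and 43.3 CPM, with the same FTO_OE replicate 2 inside the WT range. The fold of Ifit2 was 1.15 (95% interval 0.974 to 1.36). Ifit3 was at 80.7, 57.0 and 53.8 CPM against 83.6, 70.6 and 86.2 CPM, a fold of 1.26 (95% interval 0.967 to 1.63). Its transcript shares 41.1% of its 75-base stretches with the neighbouring copy Ifit3b (GENCODE M21 transcripts), so the split of reads between these copies is uncertain. Ifit3b was 1.24-fold higher, close to Ifit3. Ifit1 shares 5.19% of such stretches with Ifit1bl2 and Mx1 shares 2.21% with Mx2, and the other 7 share none with another gene.

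Isg15 encodes a small ubiquitin-like modifier that is attached to other proteins and is also secreted. It was at 10.2, 8.83 and 5.95 CPM in WT and 12.3, 7.86 and 8.86 CPM in FTO_OE lungs. Levels overlapped widely, and the fold of 1.16 had a 95% interval of 0.780 to 1.73. Rsad2 encodes viperin, which makes a chain-terminating nucleotide. It varied most between libraries, at 26.9, 13.5 and 8.59 CPM in WT and 26.5, 15.8 and 11.4 CPM in FTO_OE lungs. The highest WT library was 3.13-fold above the lowest, far more than the 1.10-fold difference between groups (95% interval 0.537 to 2.24). In 8 of the 10 genes the ratio of the highest to the lowest WT library was larger than the ratio of the group means. The share of all genes tested with this trait is not given here, and ratios of means near 1 are easily exceeded.

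**Figure D2:**
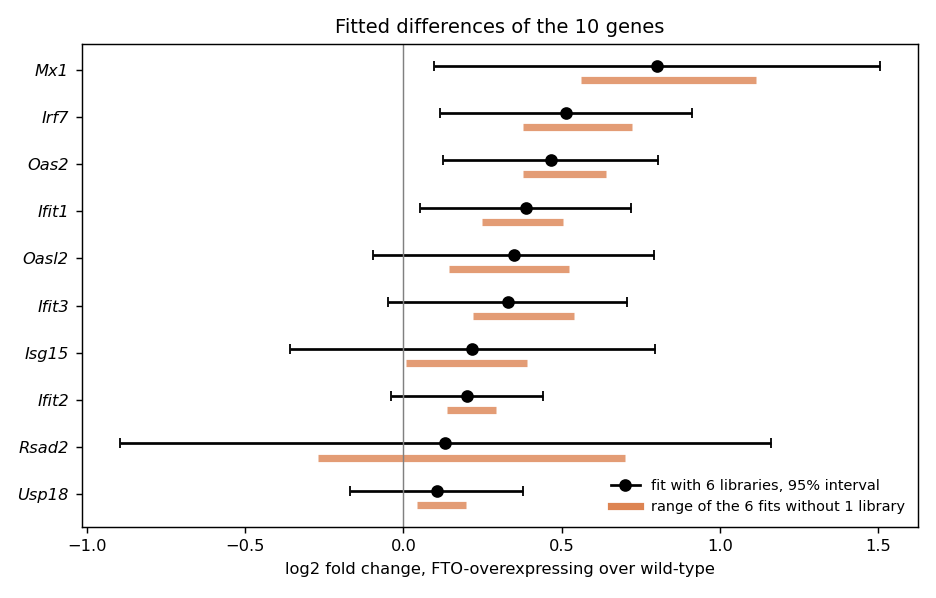
Fitted log2 fold change of each gene, FTO-overexpressing over wild-type, with its 95% interval (black), above the range of the 6 fits that each leave out 1 library (orange bar). Intervals of 6 genes include 0, and the orange bar of Rsad2 crosses 0.

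The libraries ordered the 10 genes in nearly the same way. WT replicate 1 was the highest WT library in 10 of 10 genes, and WT replicate 3 was the lowest of all 6 libraries in 10 of 10. Over all genes tested, 37.1% had WT replicate 1 as the highest WT library and 18.7% had WT replicate 3 as the lowest of the 6. Both held together in 12.2% of all genes tested, and in 25 of 45 other antiviral genes, paralogues and ISG15 conjugation genes. Among FTO_OE libraries the highest was replicate 1 in 6 genes, replicate 2 in Mx1 and Oas2 and replicate 3 in Ifit3 and Usp18. The mean log2 level of the 10, centred over libraries, was 0.16, -0.23 and -0.46 in WT and 0.37, 0.087 and 0.068 in FTO_OE replicates 1, 2 and 3. WT replicate 1 therefore lay above FTO_OE replicates 2 and 3 on this scale, and the groups overlapped.

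**Figure D3:**
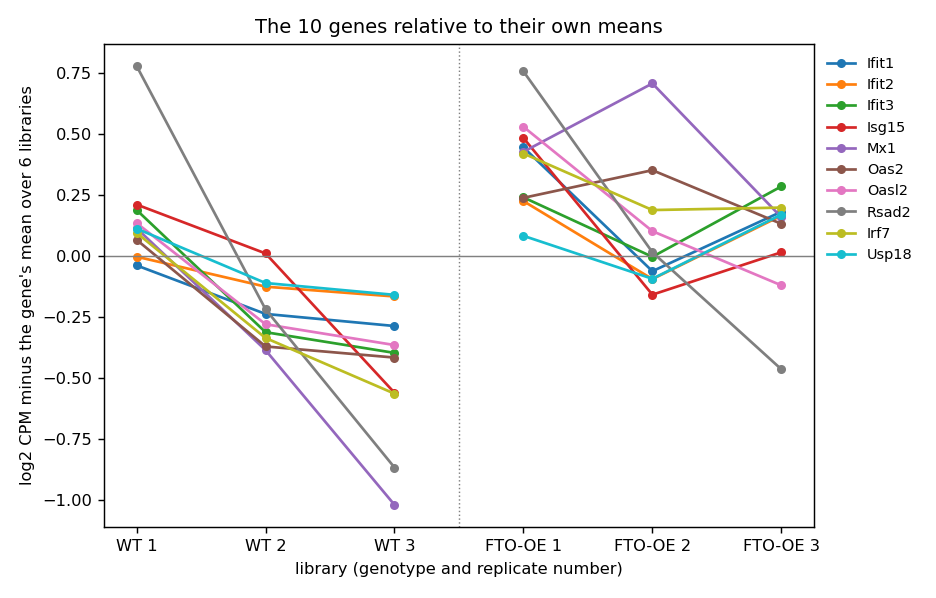
Log2 CPM of each gene minus its own mean over the 6 libraries; lines join the libraries of a group for the same gene and carry no order in time or dose. Wild-type replicate 3 is the lowest point of every gene, and Rsad2 and Mx1 spread most.

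Without WT replicate 1 the median log2 fold change of the 10 was 0.53, and 8 of 10 genes had non-overlapping groups, against 15.5% of all genes tested in that comparison. The lowest edgeR adjusted p was then 0.0961, for Oas2, and 0.101 for Irf7, so 0 passed. Without FTO_OE replicate 1 the median was 0.20, and Isg15 had a log2 fold change of 0.0092. Rsad2 turned negative in that comparison, at -0.27, and also without WT replicate 3, at -0.17. Over the 6 fits the fold of Mx1 ran from 1.47 to 2.17, of Oas2 from 1.30 to 1.56 and of Irf7 from 1.30 to 1.65. These 3 genes had non-overlapping groups in each of the 6 comparisons without 1 library. Apart from small shifts in scaling this was fixed in advance, since groups that separate with all libraries still separate without 1. The share of all genes tested with FTO_OE libraries all higher ran from 11.5% (without WT replicate 2) to 15.5% (without WT replicate 1).

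Per kilobase of exon (GENCODE M21), Ifit3 had the highest level of the 10, at 36.6 ± 8.42 CPM per kb in WT and 45.9 ± 4.79 CPM per kb in FTO_OE lungs (SD, n = 3 each). Isg15 followed at 10.99 ± 2.84 and 12.8 ± 3.05 CPM per kb. Next in WT lungs came Ifit2 (9.20 ± 0.548 CPM per kb), Oasl2 (8.57 ± 1.65), Ifit1 (7.71 ± 0.717) and Usp18 (6.93 ± 0.712). Isg15 and Ifit2, Ifit2 and Oasl2, and Oasl2 and Ifit1 differed by less than the larger SD of the pair. Irf7, Oas2 and Rsad2 lay between 3.76 and 4.67 CPM per kb in WT lungs, with neighbours again closer than the larger SD. Mx1 was lowest, at 0.920 ± 0.348 and 1.61 ± 0.305 CPM per kb. The order was the same in both groups except that Ifit2 and Oasl2 changed places. The length was that of all annotated exons of a gene merged. It was 6374 bases for Oasl2, whose longest transcript has 3123, and 2790 bases for Usp18, whose longest transcript has 1771. The level per kb of these genes, and so their place in the order, depends on the length used. Levels per length also rest on an annotation that may differ from the one used for counting.

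The pairwise correlation of log2 CPM among the 10 genes over the 6 libraries ran from r = 0.49 (Ifit2 with Rsad2) to r = 0.97 (Ifit1 with Ifit2), with a median of 0.76 over 45 pairs. With the group means removed, the median was 0.71 and the lowest r was 0.077. These are descriptions over 6 libraries that share depth and tissue make-up. Of 13485 other genes with an average log2 CPM of at least 1, the 8 most alike in pattern to the mean of the 10 were Acot13, Srp19, Apobr, Samd9l, Camk1d, Pex2, Ifi204 and Nrn1, at r = 0.98 to 0.99. Predicted and clone-named genes were left out of the 13485. Samd9l and Ifi204 are interferon-stimulated genes. Of 45 other antiviral genes, paralogues and ISG15 conjugation genes, Samd9l included, 10 were among the 100 most alike of the 13485. The 45 include Ifit3b, Ifit1bl2 and Mx2, which share stretches of sequence with Ifit3, Ifit1 and Mx1, so their counts are not fully separate from those of the 10.

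Upstream of these genes, the interferon ligands were at or near 0 counts. Of 19 genes for type I and type III interferons, including Ifnb1 and the Ifna genes, 17 had 0 counts in all 6 libraries. The WT libraries held 0 counts from the 19 genes and the FTO_OE libraries 3 in total, from Ifnab and Ifnk. A count of 0 allows up to 3 counts, or 0.139 to 0.171 CPM per library depending on depth, so expression below that was not detectable at this depth. Ifng, the type II interferon of T and natural killer cells, was in contrast at 0.326, 0.158 and 0.386 CPM in WT and 2.49, 2.68 and 3.55 CPM in FTO_OE lungs. It rose 9.89-fold (95% interval 5.39 to 18.2; edgeR adjusted p = 0.0361). The call was lost by edgeR without WT replicate 1, 2 or 3 (adjusted p = 0.0608, 0.154 and 0.155) or FTO_OE replicate 2 or 3 (0.135 and 0.137) and by limma-voom (0.0795), with the fold at 8.07 or more in each.

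Receptor and signalling genes were expressed in all libraries, and 0 of 8 passed the test. Their median log2 fold change was 0.14, with 7 of 8 above 0, and Ifnar1 and Ifnar2, the receptor chains, had folds of 1.06 and 1.03. Jak1, the receptor kinase, was at 262.5, 268.4 and 265.0 CPM in WT and 327.3, 309.9 and 357.1 CPM in FTO_OE lungs, a fold of 1.25 (95% interval 1.10 to 1.42; edgeR adjusted p = 0.227). Stat2, a transcription factor gene of the pathway, was at 57.4, 55.8 and 58.9 CPM against 88.6, 70.8 and 58.0 CPM, with overlap and a fold of 1.26 (95% interval 1.00 to 1.59; edgeR adjusted p = 0.527). Irf9, picked after its values were seen, had a fold of 1.15.

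Sensors of nucleic acid and their adaptors were centred near the background, with a median log2 fold change of 0.080 over 16 genes and 0 called. The adaptor gene Mavs had a fold of 0.845 (95% interval 0.712 to 1.00) and the DNA sensor gene Cgas one of 1.32 (95% interval 0.973 to 1.79). Over 7 negative regulators of the pathway the median was 0.15 with 0 called. Among these the phosphatase gene Ptpn6 had a fold of 1.29 and the repressor gene Irf2 one of 1.11. The ISG15 conjugation genes Uba7, Ube2l6 and Herc6 had folds of 1.14, 1.19 and 1.18, beside 1.16 for Isg15.

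The 10 paralogues of these genes were all above 0 in log2 fold change, with a median of 0.29 and 0 called. Ifit1bl1 was at 8.20, 4.26 and 5.397 CPM in WT and 10.6, 12.1 and 15.0 CPM in FTO_OE lungs, without overlap, a fold of 2.11 (95% interval 1.39 to 3.20; edgeR adjusted p = 0.207). Oas3, another oligoadenylate synthetase gene, was at 14.9, 7.84 and 7.21 CPM against 21.9, 11.9 and 18.1 CPM, with overlap and a fold of 1.74. The remaining folds were 1.33 for Oas1a, 1.26 for Mx2, 1.24 for Ifit3b, 1.197 for Ifit1bl2, 1.19 for Oas1g, 1.13 for Oasl1, 1.12 for Oas1c and 1.04 for Oas1b. Of 32 other antiviral genes tested, 26 were above 0 and 0 were called, with a median of 0.21, and 8 had FTO_OE libraries all above WT libraries, against 7.93% of all genes tested. Epsti1, an interferon-induced gene, was at 21.6, 13.8 and 11.7 CPM in WT and 36.7, 45.1 and 75.8 CPM in FTO_OE lungs, a fold of 3.34 (95% interval 2.01 to 5.58; edgeR adjusted p = 0.116). Sp100, a nuclear body gene, had a fold of 1.48 (95% interval 1.19 to 1.84; edgeR adjusted p = 0.201).

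**Figure D4:**
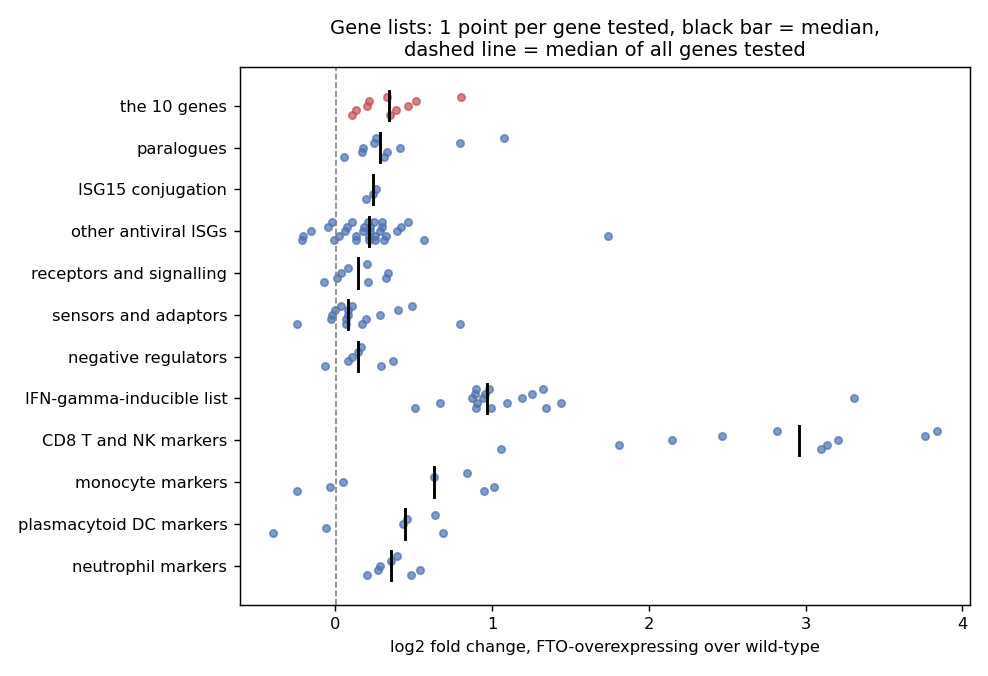
Log2 fold change, FTO-overexpressing over wild-type, of every gene tested in each list (points; red for the 10 antiviral genes), with list medians (black bars) and the median of all genes tested (dashed line). The medians are 0.34 for the 10 genes, 0.97 for the interferon-gamma-inducible list and 2.96 for CD8 T and NK markers.

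Genes inducible by interferon-gamma, the GBP and IRG GTPases with Cxcl9 and Cxcl10, stood beside these values with Ifng in a list of 18 genes tested. All 18 were above 0, with a median log2 fold change of 0.97, and Ifng was the 1 that passed. Their summed level was 1394, 926.0 and 1096 CPM in WT and 3788, 1726 and 1492 CPM in FTO_OE lungs, without overlap. The 10 antiviral genes summed to 317.0, 239.7 and 219.5 CPM against 367.5, 295.5 and 307.2 CPM, with overlap. The difference between these lists was not tested. The interferon-gamma-inducible median was 0.49 without FTO_OE replicate 1, the library highest in that sum.

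Markers of cells that can carry interferon-stimulated transcripts also differed between libraries. The 10 CD8 T and NK cell markers summed to 85.5, 45.1 and 52.3 CPM in WT and 298.1, 419.7 and 663.8 CPM in FTO_OE lungs, and 4 of the 10 were called higher (Cd8a, Cd8b1, Klrc1 and Klrk1). These 4 calls were lost without WT replicate 2 or 3 or FTO_OE replicate 2 (edgeR adjusted p from 0.0722 to 0.161). Without WT replicate 1 those of Cd8a and Cd8b1 were lost, and without FTO_OE replicate 3 those of Cd8a, Cd8b1 and Klrk1. Limma-voom called none of the 4 (adjusted p from 0.0795 to 0.123). The folds without 1 library were 5.89 or more for Cd8a, 6.65 or more for Cd8b1, 12.1 or more for Klrc1 and 4.88 or more for Klrk1. Within WT, the sum of the 10 CD8 T and NK markers and the antiviral sum were both highest in replicate 1. The lowest WT library was replicate 2 for the markers and replicate 3 for the antiviral sum. Among FTO_OE libraries the marker sum was highest in replicate 3 and the antiviral sum in replicate 1. The centred mean log2 level of 7 monocyte markers was 0.23, -0.36 and -0.67 in WT and 0.29, 0.14 and 0.37 in FTO_OE lungs. On this scale it was highest in replicate 1 and lowest in replicate 3 within WT, as were the 10 antiviral genes. Neutrophil and alveolar macrophage markers, sensors, receptor and signalling genes, negative regulators, ISG15 conjugation genes and other antiviral genes also had this WT order. CD8 T and NK, plasmacytoid dendritic cell and lung markers, paralogues and interferon-gamma-inducible genes did not. On the summed scale, where the most abundant genes weigh most, the monocyte markers stood at 1976, 2081 and 1896 CPM in WT lungs. In FTO_OE lungs they stood at 2031, 1888 and 2093 CPM, with overlap, and replicate 2 was the highest WT library. This sum was mostly Ace, at 883 to 1259 CPM over the 6 libraries, and Fn1, at 387 to 593 CPM. It is therefore not a measure of monocyte number, and which cells the transcripts of the 7 markers came from was not measured. Among these markers, named after their values were seen, Ly6c2, Ccr2 and Cx3cr1 had non-overlapping groups with FTO_OE lungs higher (7.93% of all genes tested), Ace had them with FTO_OE lungs lower (log2 fold change -0.24), and 0 of 7 were called. The 7 plasmacytoid dendritic cell markers, of the cell type known for making type I interferon, summed to 27.2 to 39.4 CPM in WT and 28.7 to 43.0 CPM in FTO_OE lungs. Most of this sum came from Ly6d (6.94 to 21.4 CPM over the 6 libraries), Cox6a2 (5.31 to 18.8) and Spib (4.08 to 9.77). Siglech was at 1.09 to 2.90 CPM. The sum is therefore not a measure of the number of these cells. Of the 6 plasmacytoid markers tested, 4 had a log2 fold change above 0, the median was 0.45 and 0 were called. Neutrophil markers summed to 1272 to 1721 CPM against 1113 to 2534 CPM. All 7 neutrophil markers had a log2 fold change above 0, with a median of 0.35 and 0 called. Their centred mean log2 level was -0.040, -0.11 and -0.31 in WT and 0.36, -0.43 and 0.53 in FTO_OE lungs, with overlap. Alveolar macrophage markers had a centred mean log2 level of 0.35, 0.079 and -0.094 in WT and 0.13, 0.014 and -0.47 in FTO_OE lungs, with overlap. Of these 7 markers 6 had a log2 fold change below 0, the median was -0.26 and 0 were called. The part of these cells in the levels of the antiviral genes was not tested.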

How the data were processed

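Per the labels' protocols, lung RNA was extracted with TRIzol and made into stranded poly(A) libraries. The submitters' processing notes name fastp, HISAT2 and StringTie. Not given in the sources used here are versions, genome build, annotation and counting program. Positions are therefore printed only for RefSeq promoters. The deposited values are expected counts, estimated reads per gene that need not be whole (9.66% to 10.3% of rows were not). They were rounded. The 525 rows without a symbol, 0.119% to 0.143% of a library's counts, were left out. In R 4.3.3, edgeR 4.0.16 was run with filterByExpr, TMM and its quasi-likelihood F-test on genotype, two-sided, with Benjamini-Hochberg adjustment over 16913 genes and a threshold of 0.05. SE and 95% intervals come from the F statistic and cover the spread between libraries. Limma 3.58.1 and DESeq2 1.42.0 were alternatives, and the fit was tested on simulated data. Centred levels use log2(CPM + 0.5). The 10 genes, lists and tests were chosen with earlier results of these data known. A gene of the signalling list is not reported here. Named besides the 10 are paralogues, called genes or else the 2 with the smallest p of each pathway list, and the 8 most alike in pattern. Receptor chains, Irf9 and cell markers were named outside this rule.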

Additional observations from a re-analysis of the deposited data

How the results depend on the processing

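None of the 10 antiviral genes passed in any of the fits tried, which were RLE and upper-quartile scaling, library totals, no filter or a stricter filter, a replicate block, abundant transcripts left out, each library left out, limma-voom and DESeq2, at an adjusted p of 0.05. In the main analysis none passed at 0.01 or 0.1 either. Without WT replicate 1 the adjusted p of Oas2 was 0.0961. Of 150 values over 15 fits, 148 were above 0. The exceptions were both Rsad2, whose log2 fold change ran from -0.27 to 0.70 over the fits without 1 library. All fits reuse the same libraries and the 10 genes vary together, so the 150 values are not independent and their signs could hardly differ. With library totals alone 5 of the 10 had non-overlapping groups, Ifit1 and Ifit2 being added (10.3% of all genes tested). Over the comparisons without 1 library the number ran from 3 to 8. It was 8 without WT replicate 1 (15.5% of all genes tested) and 6 without FTO_OE replicate 2 (14.5%). In the other comparisons it was 3, with 11.5% to 13% of all genes. Fewer libraries separate more easily, so these numbers are not comparable with that of the main analysis. The number of all genes called was 16 in the main analysis, 255 with no filter, 31 when genes of haemoglobin, immunoglobulin and the mitochondrial genome were dropped, 5 with limma-voom, 422 with DESeq2, 1 at a threshold of 0.01, 70 at 0.1, and from 1 to 49 without 1 library: 1 without WT replicate 2, WT replicate 3 or FTO_OE replicate 2, 6 without FTO_OE replicate 3 and 49 without FTO_OE replicate 1. With the replicate number as a block 2 genes were called and 0 of the 10, with a lowest adjusted p of 0.327. The call of Ifng was lost with that block (adjusted p = 0.121, fold 10.01), as were those of Cd8a, Cd8b1, Klrc1 and Klrk1, with folds of 6.85, 8.29, 14.1 and 5.59. Whether the numbers pair the libraries is not given in the labels. Deviations of same-numbered libraries from their group means correlated at 0.13, -0.33 and -0.35. These values cannot decide it, because the deviations of the 3 libraries in a group sum to 0. Without 1 library the median log2 fold change ran from 0.20 (FTO_OE replicate 1) to 0.53 (WT replicate 1) for the 10, from 0.077 (WT replicate 3) to 0.18 for receptors and signalling, from 0.045 (FTO_OE replicate 1) to 0.14 (FTO_OE replicate 2) for sensors, from 0.094 to 0.30 (WT replicate 1) for negative regulators, from 0.22 to 0.48 (WT replicate 1) for paralogues, from 0.13 (FTO_OE replicate 1) to 0.32 for ISG15 conjugation and from 0.11 (FTO_OE replicate 1) to 0.30 for other antiviral genes. The cause of these changes was not tested. Depth limits the genes with few counts, such as Mx1, Ifng and the ligands.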
